A study of Homo sapiens
Mus musculus with 16 samples.

Results

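The host adipocyte genes described here are 10 mouse genes that fat cells express strongly. They were taken as a list of Ensembl IDs for their known role in fat cells, and no threshold on these data chose them. Earlier results of these data were known when the list was chosen. They are Adipoq (ENSMUSG00000022878), Lep (ENSMUSG00000059201), Cfd (ENSMUSG00000061780), Plin1 (ENSMUSG00000030546), Cidec (ENSMUSG00000030278), Lipe (ENSMUSG00000003123), Lpl (ENSMUSG00000015568), Fabp4 (ENSMUSG00000062515), Slc2a4 (ENSMUSG00000018566) and Pparg (ENSMUSG00000000440). They are 10 of the 48795 IDs in the mouse count matrix, and the pairing of ID and symbol came with the list. All 10 had a count in each of the 16 libraries, and all 10 passed the filter on low counts that left 15074 mouse genes for testing.

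The libraries came from tumours that arose where MDA-MB-231 cells, an established cell line from a human triple-negative breast cancer, had been injected into the mammary fat pad of nude mice (Balb/c). Nude mice lack a functional thymus and most T cells but keep their fat tissue, so mouse adipocyte RNA in these libraries came from the host. The tissue is labelled as mammary gland. Each mouse received 2000000 cells in 50 µl of PBS and Matrigel, and the tumour was taken on day 50. There were 4 groups of 4 mice, all injected intraperitoneally. Vehicle mice received no drug. Nab-paclitaxel mice received this albumin-bound taxane at 30 mg/kg on days 15, 22 and 29. Phenelzine mice received this monoamine oxidase inhibitor at 40 mg/kg daily from day 15. Combination mice received both schedules. One paired-end mRNA library was made per tumour.

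White adipocytes store triglyceride in a single large droplet, release fatty acids from it on demand, and secrete hormones into the blood. The mammary fat pad consists largely of such cells, with mammary epithelium, vessels, fibroblasts and macrophages among them. The nuclear receptor PPARγ drives adipocyte formation and switches on most of the other genes of the list. A tumour that fills the pad can displace, surround or adjoin this fat. In bulk RNA, fewer adipocytes and less of an RNA per adipocyte cannot be told apart.

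Mouse totals ranged from 3457146 to 27389920 counts per library and human totals from 11065140 to 34537399. Vehicle mice 1 to 4 had a mouse share of all counts of 13.8%, 37.8%, 19.0% and 13.6%. Nab-paclitaxel mice had 59.7%, 23.4%, 21.1% and 41.9%, phenelzine mice 9.97%, 15.2%, 9.25% and 16.1%, and combination mice 71.2%, 47.4%, 55.9% and 18.6%. No 95% Wilson interval of a share was wider than 0.0323 percentage points, for counting error only. Unless stated otherwise, a level is in CPM, counts per 1000000 mouse counts, scaled by the TMM method, so that it is relative to host RNA and not to the whole tumour. Levels are compared between libraries and not between genes, because gene lengths were not used.

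RNA of the adipocyte genes was counted in every tumour, and its level varied widely between mice of 1 group. Summed over the 10 genes it made up 0.0390% of mouse counts in vehicle 1 and 0.558% in phenelzine 2. In the vehicle group the sum was 0.0390%, 0.117%, 0.269% and 0.0768% for mice 1 to 4. With nab-paclitaxel it was 0.273%, 0.484%, 0.172% and 0.0860%. With phenelzine it was 0.0811%, 0.558%, 0.102% and 0.0396%. Under both drugs it was 0.251%, 0.358%, 0.3604% and 0.238%. Group means were 0.126% ± 0.101 (vehicle), 0.254% ± 0.171 (nab-paclitaxel), 0.195% ± 0.243 (phenelzine) and 0.302% ± 0.0665 (combination; SD, n = 4 each). On this scale the combination group had the narrowest range: its highest sum was 1.52 times its lowest, against 6.90 times for vehicle, 5.62 times for nab-paclitaxel and 14.1 times for phenelzine. A difference in spread between groups was not tested.

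**Figure D1:**
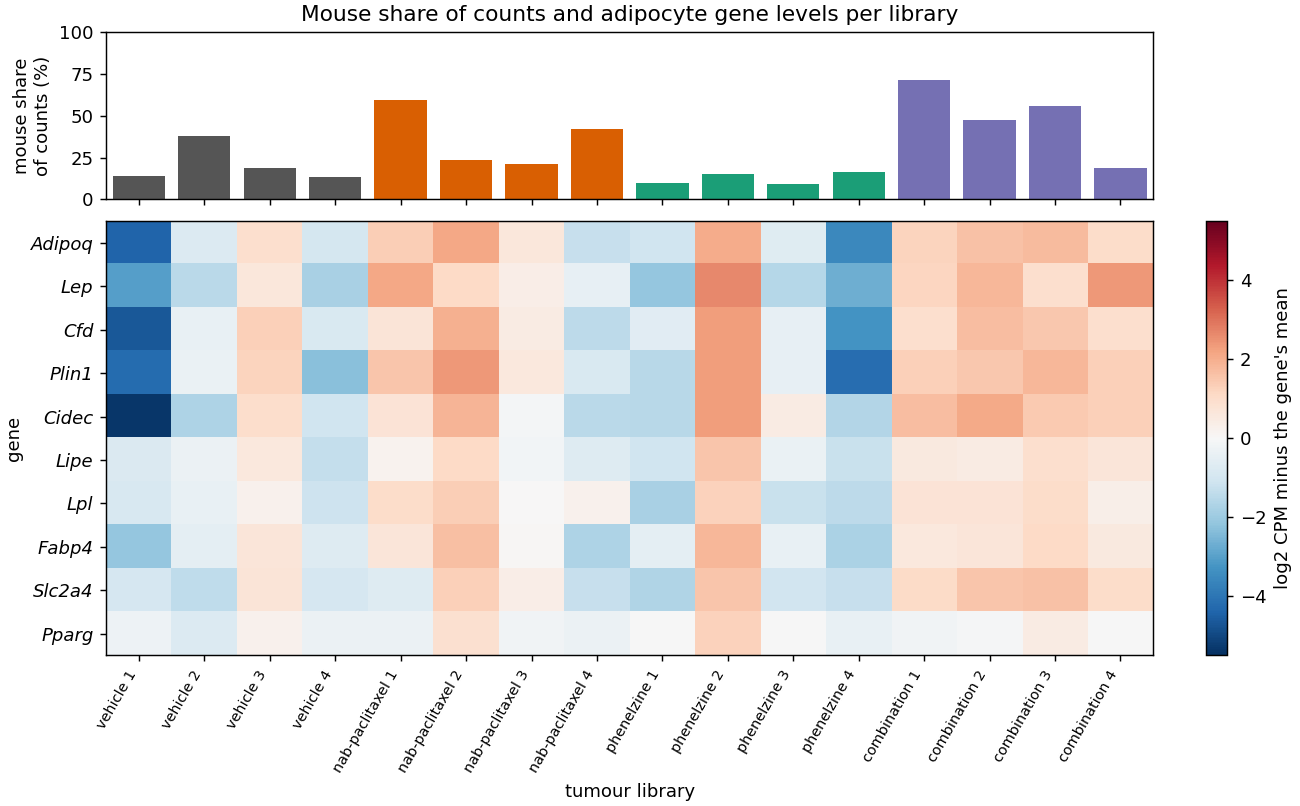
Top, mouse share of all counts in percent for each of the 16 tumour libraries, coloured by group. Bottom, log2 CPM of each adipocyte gene minus that gene's mean over the libraries. Vehicle 1 and phenelzine 4 are low across most genes and phenelzine 2 and nab-paclitaxel 2 high, while the bars above them range only from 13.8% to 23.4%.

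Within groups, all 10 genes varied more between mice than the median host gene did. The SD of log2 CPM around the group means was 1.89 for Plin1, 1.85 for Cfd, 1.75 for Adipoq, 1.73 for Cidec and 1.45 for Lep. The median over all mouse genes tested was 0.40. Only 1.74% of tested genes had a larger SD than Plin1 and 1.90% a larger one than Cfd. Fabp4 followed with 1.18, Slc2a4 with 1.02, Lipe with 0.85 and Lpl with 0.84. Pparg had an SD of 0.53, exceeded by 36.8% of tested genes.

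The 3 secreted products come first. Adiponectin, the product of Adipoq, is a hormone made almost only by adipocytes and raises insulin sensitivity in liver and muscle. Adipoq stood at 2.71, 33.8, 108 and 29.3 CPM in vehicle mice 1 to 4 and at 147, 249.1, 87.4 and 23.6 CPM with nab-paclitaxel. It stood at 26.4, 236, 36.2 and 4.83 CPM with phenelzine and at 132, 172, 190.2 and 113 CPM with the combination. All combination libraries lay above all vehicle libraries, by a margin of 113 against 108 CPM, while each single-drug group overlapped the vehicle group. Vehicle 1, with 13 counts, was the lowest of the 16 libraries and nab-paclitaxel 2 the highest.

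Leptin, encoded by Lep, signals the size of the fat stores to the brain. Lep was rare, with 2, 19, 34 and 5 counts in the vehicle libraries, or 0.418, 1.21, 5.21 and 0.998 CPM. With nab-paclitaxel it stood at 15.0, 7.31, 4.35 and 2.47 CPM. With phenelzine it stood at 0.793, 21.2, 1.17 and 0.537 CPM, from 3, 133, 4 and 3 counts. With the combination it stood at 7.87, 12.04, 6.44 and 17.8 CPM, and all 4 libraries lay above the vehicle libraries. The low libraries rest on so few counts that their order is not informative.

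Complement factor D, the adipsin encoded by Cfd, is a serine protease that adipocytes secrete and that starts the alternative complement pathway. Vehicle 1 had 14.0 CPM, vehicle 4 had 201 and vehicle 3 had 890.4, with vehicle 2 between the last 2. The nab-paclitaxel libraries had 588, 1363, 486 and 130.5 CPM. The phenelzine libraries had 233, 1732, 262 and 36.1 CPM and the combination libraries 684, 1143, 988 and 681 CPM. Vehicle 3 lay above 2 of the combination libraries, so these groups overlapped.

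The lipid droplet genes showed a similar pattern over the libraries. Perilipin 1, from Plin1, coats the droplet and restrains its breakdown. Plin1 stood at 1.88, 27.4, 83.8 and 7.18 CPM with vehicle and at 103, 187, 54.1 and 19.8 CPM with nab-paclitaxel. It stood at 12.4, 178, 26.0 and 1.97 CPM with phenelzine and at 88.9, 99.2, 129 and 89.8 CPM with the combination. The combination libraries lay within 1.45 times of each other and just above vehicle 3, the highest vehicle library.

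Cidec encodes a droplet protein that promotes fusion of small droplets into the single large one. It had the widest range of the list, from 1.04 CPM (5 counts) in vehicle 1 to 207 CPM in phenelzine 2. The other vehicle libraries had 12.8, 81.2 and 19.8 CPM, and the nab-paclitaxel libraries 71.2, 155, 38.7 and 15.0 CPM. The other phenelzine libraries had 14.8, 57.0 and 13.6 CPM. With the combination it stood at 136, 180, 115 and 103 CPM, all above the vehicle group.

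Lipe encodes hormone-sensitive lipase, which cuts diglyceride during fatty acid release. Vehicle mice had 50.7, 71.2, 130.1 and 35.1 CPM and nab-paclitaxel mice 101, 186, 78.9 and 53.1 CPM. Phenelzine mice had 40.7, 256, 69.0 and 37.6 CPM and combination mice 128, 122, 166 and 141 CPM. Combination libraries 1 and 2 lay below vehicle 3, so the groups overlapped.

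The uptake genes are less restricted to fat. Lipoprotein lipase, from Lpl, frees fatty acids from circulating lipoproteins and is also made by macrophages and muscle. Lpl stood at 214, 293, 464 and 176 CPM with vehicle and at 802, 997, 401 and 463 CPM with nab-paclitaxel. It stood at 113, 957, 168 and 143 CPM with phenelzine and at 652, 657, 779 and 489 CPM with the combination. Nab-paclitaxel 4 had the ninth highest Lpl of 16 but the 14th highest Adipoq. All combination libraries lay above the vehicle group.

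Fabp4 encodes a fatty acid carrier of adipocytes, macrophages and capillary endothelium. It ranged from 118 to 827 CPM in vehicle mice, from 160.3 to 1625 CPM in nab-paclitaxel mice, from 155 to 1824 CPM in phenelzine mice and from 749 to 1105 CPM in combination mice. The combination and vehicle groups overlapped through vehicle 3. Slc2a4 encodes GLUT4, the insulin-regulated glucose transporter of fat and muscle. It stood at 4.80, 3.45, 14.7 and 4.79 CPM with vehicle and at 5.57, 22.6, 11.8 and 3.79 CPM with nab-paclitaxel. It stood at 2.91, 25.9, 4.38 and 3.76 CPM with phenelzine and at 18.8, 26.2, 27.5 and 18.1 CPM with the combination, all above the vehicle group.

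Pparg, the regulator, varied least of the list. It ranged only from 11.9 to 48.8 CPM over the 16 libraries, and its mean was 17.0 ± 4.93 CPM in vehicle mice, 21.7 ± 10.1 in nab-paclitaxel mice, 25.9 ± 15.5 in phenelzine mice and 21.0 ± 4.61 in combination mice (SD, n = 4 each). In vehicle 1, where Adipoq was lowest, Pparg was 16.5 CPM, and in combination 1, with 132 CPM of Adipoq, it was 17.3 CPM. Its highest values were in phenelzine 2 and nab-paclitaxel 2. Macrophages and other host cells also express Pparg.

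**Figure D2:**
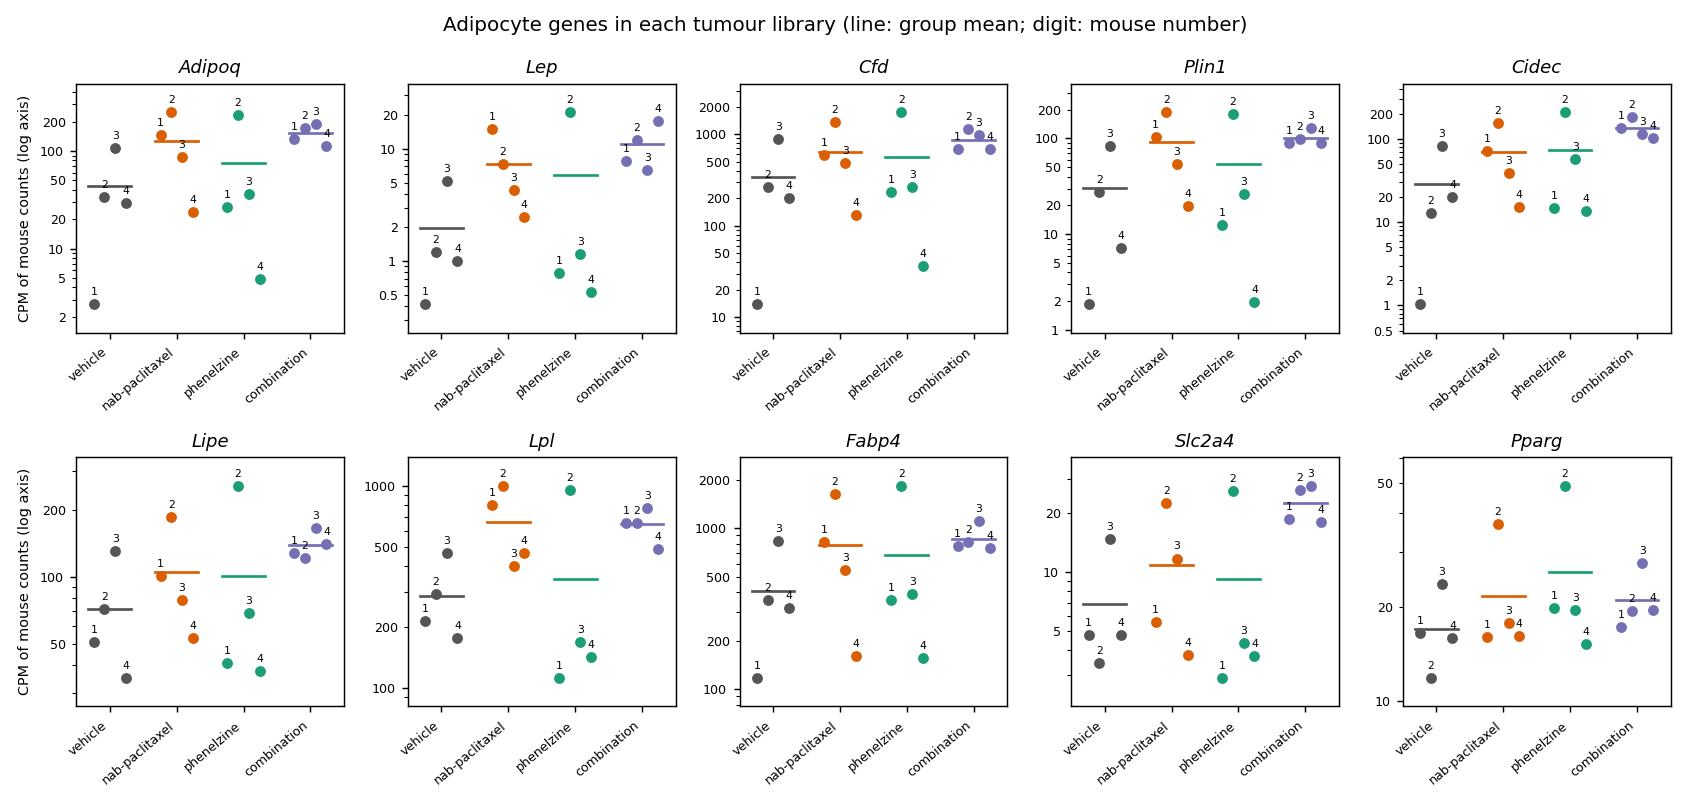
CPM of mouse counts, on a log axis, for each adipocyte gene in every tumour library by group. Points are single mice with their number and lines are group means. Phenelzine 2 lies above the other phenelzine mice in each panel, and the 4 combination mice lie close together, from 113 to 190.2 CPM for Adipoq.

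Combination and vehicle mice differ by both drugs. All 10 genes had a higher mean in combination mice, where 46.2% of all tested genes had a fold change above 0. The genes of the list vary together, so their shared direction and the counts of genes below are not independent results. None of the 10 passed the test after adjustment over all genes. Past the threshold, an edgeR adjusted p under 0.05, were 0 of the 10 and 0.0332% of all tested genes. Slc2a4 averaged 6.93 ± 5.22 CPM with vehicle and 22.6 ± 4.91 with the combination (SD, n = 4 each), a difference of 1.71 on the log2 scale (95% interval 0.187 to 3.24, SE 0.714, adjusted p = 0.327 in edgeR). Lep averaged 1.96 ± 2.19 and 11.02 ± 5.08 CPM, which is 2.47 on the log2 scale (0.236 to 4.69, SE 1.04, adjusted p = 0.329 in edgeR). Cidec averaged 28.7 ± 35.8 and 134 ± 33.6 CPM, which is 2.22 on the log2 scale (0.0331 to 4.40, SE 1.02, adjusted p = 0.361 in edgeR). These 3 genes, of 10, had an unadjusted p under 0.05, as did 13.7% of all tested genes. That count was 0 without vehicle 1, 2 or 4 (12.4%, 17.9% and 11.7% of all genes) and 7 without vehicle 3 (13.9%). Adipoq averaged 43.5 ± 45.2 and 152 ± 35.3 CPM, a log2 difference of 1.80 (adjusted p = 0.440 in edgeR, SE 1.02). Plin1 had a log2 fold change of 1.75, Cfd of 1.35, Lpl of 1.17, Fabp4 of 1.09, Lipe of 0.95 and Pparg of 0.31, with edgeR adjusted p from 0.393 to 0.736. The median over the 10 was 1.53, against -0.03 over all genes tested. DESeq2 also called 0 of the 10 (1.69% of the mouse IDs to which it gave an adjusted p), as did limma voom (0.0199% of all genes).

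Every combination library lay above every vehicle library in 6 of the 10 genes (Adipoq, Lep, Plin1, Cidec, Lpl and Slc2a4). This held for 2.67% of all tested genes. A single mouse, vehicle 3, set the limit: without it the combination lay above vehicle in all 10, against 5.11% of all tested genes. Vehicle 3 was the highest vehicle library in every gene of the list, so leaving it out could only keep or raise this count. Leaving out any other vehicle or combination library gave 6, with no share over all genes computed. Without vehicle 1, the lowest library for most of the list, the log2 fold changes of Adipoq and Cidec were 1.42 and 1.82. Without vehicle 3 they were 2.79 and 3.58, and the median of the list was 2.44.

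Mice given the taxane alone had higher means than vehicle mice in all 10 genes. Of all tested genes, 45% had a fold change above 0. The 10 genes vary together, so their shared direction is not 10 independent results. The comparison uses the same 4 vehicle mice as the one above. Of the list, 0 of the 10 passed edgeR's test, as did 0% of all tested genes. Lep averaged 7.28 ± 5.52 CPM with nab-paclitaxel, a log2 difference of 1.88 (adjusted p = 0.487 in edgeR, SE 1.03). Lpl averaged 287 ± 128 CPM with vehicle and 666 ± 283 with nab-paclitaxel, a log2 difference of 1.21 (adjusted p = 0.428 in edgeR, SE 0.588). Adipoq averaged 127 ± 95.8 CPM with nab-paclitaxel, a log2 difference of 1.54 (adjusted p = 0.560 in edgeR, SE 1.01). The log2 fold changes of the other genes were 1.59 for Plin1, 1.28 for Cidec, 0.96 for Fabp4, 0.90 for Cfd, 0.65 for Slc2a4, 0.54 for Lipe and 0.35 for Pparg. At an unadjusted p under 0.05 there were 0 of the 10, against 11.9% of all genes. The groups overlapped in all 10, where 3.07% of all genes had every nab-paclitaxel library above every vehicle library. DESeq2 called 0 of the 10 (1.24% of IDs) and voom 0 (0.00663% of all genes). The sizes changed when single mice were left out, to a degree that differed by gene. Without nab-paclitaxel 2 the median of the list went from 1.09 to 0.45, with Cidec at 0.55, Fabp4 at 0.35, Cfd at 0.25, Lipe at 0.13, Slc2a4 at 0.03 and Pparg at -0.01. Without vehicle 3 the median was 1.81, with Plin1 at 2.87 and Cidec at 2.65.

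For phenelzine alone, set against the same vehicle mice, the direction rested on 1 mouse. With all 4 phenelzine mice the means of all 10 genes were above vehicle, where 45.2% of all tested genes had a fold change above 0. The median log2 fold change of the list was 0.74, with values from 0.27 for Lpl to 1.62 for Lep. None passed edgeR's test (0% of all tested genes did), 0 had an unadjusted p under 0.05 (6.11% of all genes), and the groups overlapped in all 10 (1.07% of all genes were fully above). DESeq2 (0.062% of IDs) and voom (0% of all genes) called 0 of the 10. Without phenelzine 2 the sign turned in 9 of the 10, the exception being Pparg, and the median was -0.92. Lpl then had a log2 difference of -1.01 (adjusted p = 0.807 in edgeR, SE 0.367) and Lep of -1.27 (adjusted p = 0.842 in edgeR, SE 0.892). With or without this mouse none of the list passed edgeR's test. Without it 1 gene, Lpl, had an unadjusted edgeR p under 0.05, as did 6.14% of all genes.

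**Figure D3:**
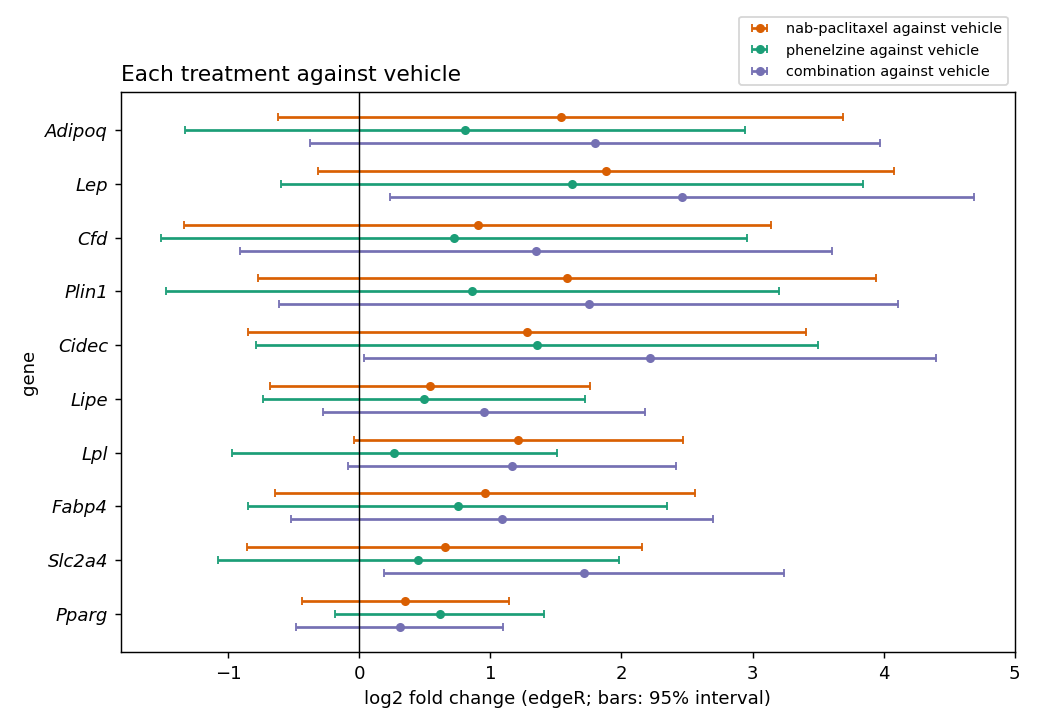
Log2 fold change of each adipocyte gene for nab-paclitaxel, phenelzine and the combination against vehicle, with 95% intervals from the edgeR fit. All points lie right of 0, but the 3 comparisons share the same 4 vehicle mice, and only the intervals of Lep, Cidec and Slc2a4 with the combination exclude 0 before adjustment.

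Combination and phenelzine mice differ by the taxane. With all mice 0 of the 10 genes passed edgeR's test (0.00663% of all genes did) and 0 had an unadjusted p under 0.05 (18.1% of all genes). Log2 fold changes ran from -0.31 for Pparg to 1.26 for Slc2a4, with a median of 0.85. Phenelzine 2 lay above at least 2 of the combination libraries in all 10 genes, so none separated (5.6% of all genes did). DESeq2 and voom called 0 of the 10, against 3.19% of IDs and 2.59% of all genes. Without that mouse the median was 2.27, and 9 of the 10 had an unadjusted p under 0.05, against 18.5% of all genes. None of these passed adjustment. The lowest values were 0.105 for Lpl (log2 fold change 2.19, SE 0.385) and 0.143 for Lep (3.75, SE 0.895) and Slc2a4 (2.62, SE 0.646), all edgeR adjusted p.

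Combination and nab-paclitaxel mice differ by phenelzine. Log2 differences ran from -0.05 for Lpl to 1.06 for Slc2a4, with a median of 0.34. For Adipoq the log2 difference was 0.26 (adjusted p = 0.986 in edgeR, SE 0.982). Of the 10 genes, 0 passed edgeR's test (0.0199% of all genes), 0 had an unadjusted p under 0.05 (5.53%) and 0 separated (2.21%). DESeq2 and voom called 0 of the 10, against 0.282% of IDs and 0.0663% of all genes. Without nab-paclitaxel 2 the median was 0.80 and without nab-paclitaxel 4 it was 0.01. The 95% intervals of 9 of the 10, Pparg being the exception, reached above 1 on the log2 scale, so these intervals take in a doubling.

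Averaged over phenelzine, all 10 fold changes for nab-paclitaxel were above 0, as were those of 49.1% of all tested genes. The median log2 fold change of the list was 1.01. Lpl had a log2 fold change of 1.06 (SE 0.414, edgeR unadjusted p = 0.0224, adjusted p = 0.168), Lep of 1.36 (SE 0.708, adjusted p = 0.290) and Adipoq of 1.26 (SE 0.708, adjusted p = 0.327). The others were 1.24 for Plin1, 1.07 for Cidec, 0.96 for Slc2a4, 0.77 for Cfd, 0.65 for Fabp4, 0.50 for Lipe and 0.02 for Pparg. With all mice 0 of the 10 passed (0.796% of all genes did) and 1, Lpl, had an unadjusted p under 0.05 (20.7% of all genes). Without phenelzine 2, Lpl and Lep passed: 2 of the 10, against 0.774% of all genes. Lpl then had a log2 difference of 1.71 (adjusted p = 0.0139 in edgeR, SE 0.254) and Lep of 2.82 (adjusted p = 0.0417 in edgeR, SE 0.564), and 9 of the 10 had an unadjusted p under 0.05, against 20.9% of all genes. Leaving out any other single library gave 0. Without nab-paclitaxel 2 the median was 0.68. With all mice DESeq2 and voom called 0 of the 10, against 7.04% of IDs and 5.96% of all genes.

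The average effect of phenelzine and the interaction of the drugs gave no calls either. For phenelzine the log2 fold changes ran from 0.11 for Lpl to 1.15 for Cidec, 0 of the 10 passed (0.0265% of all genes) and 0 had an unadjusted p under 0.05 (3.81%). Without phenelzine 2 the median went from 0.52 to -0.20 and 7 of the 10 were below 0, with 1 gene, Lpl, at an unadjusted p under 0.05 (3.52% of all genes). Without vehicle 3 the median was 1.07. DESeq2 (0.0849% of IDs) and voom (0.0464% of all genes) called 0 for this effect. For the interaction they ran from -1.04 for Lep to 0.61 for Slc2a4, 0 passed (0% of all genes) and 0 had an unadjusted p under 0.05 (8.15%). Without phenelzine 2 the median interaction went from -0.48 to 1.09 on the log2 scale, with adjusted p of at least 0.58 in edgeR. Without vehicle 3 it was -1.33, and without nab-paclitaxel 2 it was -0.01. DESeq2 (0.0884% of IDs) and voom (0.00663% of all genes) called 0 for the interaction.

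Beside the mouse share of counts, the adipocyte genes showed no detectable slope. Phenelzine 2 had the highest sum of the list with a mouse share of 15.2%, while phenelzine 4, at 16.1%, had the second lowest. Nab-paclitaxel 4 and vehicle 2 had shares of 41.9% and 37.8% with sums of 0.0860% and 0.117% of mouse counts. Combination 4, at a share of 18.6%, still had 113 CPM of Adipoq and the second highest Lep. In a fit with a common slope within groups, the log2 change per 10 percentage points of mouse share ran from -0.18 for Slc2a4 (adjusted p = 0.692 in edgeR, SE 0.207) to 0.11 for Lpl (adjusted p = 0.759, SE 0.159). For Adipoq it was 0.03 (SE 0.28, 95% interval -0.572 to 0.632). None of the 10 passed, against 3.52% of all tested genes, and 0 had an unadjusted p under 0.05, against 18.5% of all genes. DESeq2 and voom called 0 of the 10, against 7.63% of IDs and 10.9% of all genes. When the mouse share entered each fit, 0 of the 10 passed in any comparison. Few genes of any kind did: at most 5 of the 15074 tested, and 1 for the average nab-paclitaxel effect. Between combination and vehicle the log2 fold change was then 1.72 for Adipoq, 2.28 for Slc2a4 and 0.85 for Lpl.

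**Figure D4:**
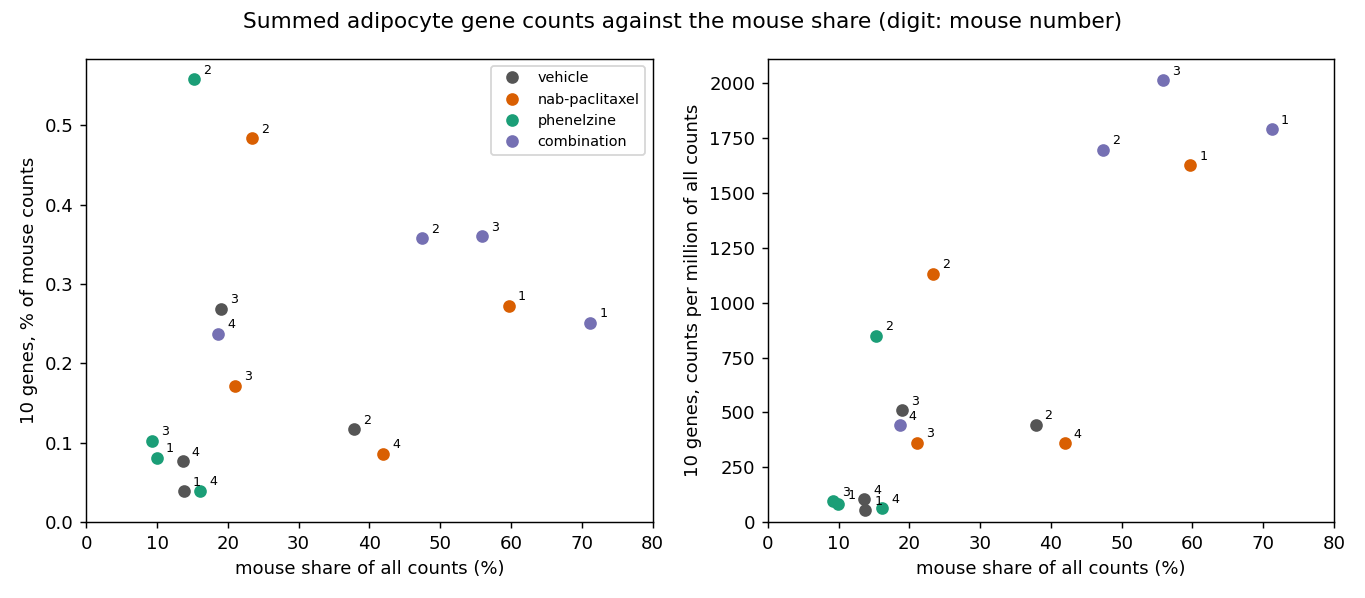
Summed counts of the 10 adipocyte genes against the mouse share of all counts, 1 point per tumour with its mouse number. Left, as a percentage of mouse counts, phenelzine 2 is highest at 0.558% with a share of 15.2%. Right, in CPM of all counts, the 4 libraries with the largest shares are the 4 highest, up to 2014 in combination 3.

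Levels were also scaled to the whole tumour, as CPM of the counts of both species. The sum of the list was then 53.7, 444, 510.2 and 105 CPM in vehicle mice and 1627, 1131, 362 and 361 CPM in nab-paclitaxel mice. It was 80.9, 850.4, 94.7 and 63.8 CPM in phenelzine mice and 1789, 1697, 2014 and 443 CPM in combination mice. The combination range was then 4.55 times from lowest to highest, against 4.51 times for nab-paclitaxel, 9.50 times for vehicle and 13.3 times for phenelzine, so it was no longer the narrowest. On this scale the median of all mouse genes also moved, by 1.36 (log2) for the average nab-paclitaxel effect, 1.15 for the combination against vehicle and 2.01 for the combination against phenelzine. All 10 adipocyte genes passed the edgeR test for the average nab-paclitaxel effect, as did 81.3% of all genes, with a median log2 fold change of 2.24. All 10 also passed for the combination against phenelzine, as did 84% of all genes. Beside the median of all mouse genes, the medians of the list were 2.24 against 1.36 and 2.56 against 2.01. Against vehicle, the combination gave 0 calls among the 10 (edgeR adjusted p at least 0.0773), 10 of 10 at an unadjusted p under 0.05 (41.6% of all genes), and separated groups in 4, against 3.34% of all genes. The slope on the mouse share was past the threshold in 3 of the 10, against 83.4% of all genes.

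The genes of the list varied together from library to library, Pparg least closely, a description that was not tested. The likeness of each gene to the mean of the other 9, as Pearson's r of log2 CPM over the 16 libraries, was 0.971 for Adipoq, 0.967 for Plin1, 0.956 for Fabp4, 0.948 for Cfd, 0.917 for Cidec, 0.915 for Lipe, 0.912 for Lep, 0.844 for Lpl, 0.839 for Slc2a4 and 0.645 for Pparg. Spearman's rho ran from 0.653 for Pparg to 0.968 for Adipoq. Without vehicle 1 and phenelzine 4, the libraries farthest from the median, r ran from 0.675 for Pparg to 0.981 for Adipoq. After removal of group means it ran from 0.759 for Pparg to 0.967 for Fabp4. All values of a library share its depth and scaling.

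Among the 15064 other tested mouse genes, 58 had an r over 0.9 with the mean of the list and 0 had one under -0.9. The 2 most like it were ENSMUSG00000027559 (r = 0.986, Spearman 0.95, 24.4 to 2015 CPM) and ENSMUSG00000023019 (r = 0.98, Spearman 0.985, 2.30 to 324 CPM). The 2 least like it were ENSMUSG00000045362 (r = -0.848, 16.2 to 56.7 CPM) and ENSMUSG00000006471 (r = -0.843, 15.4 to 49.2 CPM). No symbol is paired with these IDs in the count matrix. For the same reason markers of macrophages, endothelium, muscle and mammary epithelium, some of which express Lpl, Fabp4, Pparg or Slc2a4, were not analysed here, and their part in the levels of these 4 genes was not tested.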

How the data were processed

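The authors deposited whole-number counts per gene in 2 matrices, human and mouse, with 1 column per tumour library. Per the submitters' processing notes, which give no roles, the tools included HISAT2 2.04, StringTie, Trimmomatic 0.36, Picard and edgeR, with builds mm10 and hg38. The division of reads by species and the use of strand are not stated in the labels, so counts of genes with a near-identical human copy or an overlapping partner are uncertain. In the deposited mouse counts the values 1, 2, 3 and 4 occur 9478, 15617, 17175 and 6776 times, so a low count is not a plain tally of reads.

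The mouse matrix was tested with edgeR 4.0.16 (R 4.3.3): TMM, the default filter (minimum count 10), 1 mean per group over 16 libraries, 12 residual degrees of freedom, and its quasi-likelihood test with Benjamini-Hochberg adjustment over 15074 genes at 0.05. The slope on the mouse share added that share as a covariate. Each SE was taken as the log2 fold change over the root of the F statistic. DESeq2 1.42.0 (on all IDs, with its own filtering) and limma 3.58.1 (voom with sample quality weights) were alternatives. The others were no filter, the replicate number as a block, the mouse share as a covariate, scaling to all counts, only the 2 groups in the fit, each library left out, and leaving out nab-paclitaxel 1 and 4 and combination 1 and 3, which stood apart by their human genes in an earlier analysis. The members, lists and tests were chosen with earlier results of these data known. All 10 genes are named, with the 2 genes most and the 2 least like their mean. Other gene lists, written by symbol, could not be matched, since 0 mouse IDs were paired with a symbol. No library repeated another (chi-square per degree of freedom at least 13.1 within groups). The p-values measure the spread between mice with 1 library each.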

Additional observations from a re-analysis of the deposited data

Results flagged for a closer look

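In CPM without logs, phenelzine 2 stood far above the other 3 phenelzine mice in 9 of the 10 adipocyte genes. The exception was Cidec, where the gap fell short of the criterion. That criterion is the gap to the next library as a part of the range of the group. For the 9 genes it ran from 0.856 (Lipe) to 0.969 (Lep). It was not applied to log2 CPM, on which the fits rest and on which low libraries widen the range. Phenelzine 4 was such a library, with 4.83 CPM for Adipoq, 1.97 for Plin1 and 36.1 for Cfd. The levels of phenelzine 2 were 236 CPM for Adipoq, 21.2 for Lep, 178 for Plin1, 1824 for Fabp4, 48.8 for Pparg, 1732 for Cfd, 957 for Lpl, 256 for Lipe and 25.9 for Slc2a4. Its mouse share of 15.2% lay within the range of its group. Vehicle 3 stood apart from the other vehicle mice in the same way for Lep (5.21 CPM) and Slc2a4 (14.7 CPM), and nab-paclitaxel 2 from its group for Pparg (36.8 CPM). In all, 12 of the 40 sets of 4 values held such a library. Chance flags about 1 in 20 if CPM are normally distributed, which was not tested. Over all tested mouse genes 7.18% of such sets held one, and 7.2% of those of the phenelzine group. The genes vary together, so these flags are not independent.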

How the results depend on the processing

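Of 42 named fold changes recomputed under the alternatives (781 values), 733 kept their direction and their side of the threshold. Another 14 kept their direction and passed it only in the alternative, and 34 reversed. Among the reversed, Pparg for the combination against phenelzine also passed the threshold when scaled to all counts. All reversed values were of genes not called in the reported fit. For those 34 the cause was not tested. The count of adipocyte genes past the threshold was 0 throughout, with 2 exceptions. Scaled to all counts it was 10 for the combination against phenelzine and for the average nab-paclitaxel effect and 3 for the slope. Most mouse genes then passed too: 84%, 81.3% and 83.4%. With single libraries left out it was 0 to 2 for the average nab-paclitaxel effect and otherwise 0.

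Reversed log2 values with voom were -0.028 (Slc2a4, nab-paclitaxel against vehicle), -0.59 and -0.027 (Lpl and Lep, phenelzine against vehicle), 0.075 (Lpl, combination against nab-paclitaxel), 0.65 (Lep, interaction), -0.081 (Pparg, average nab-paclitaxel effect) and -0.26 (Lpl, average phenelzine effect). Scaled to all counts they were -0.40 (Lpl, phenelzine against vehicle), 0.41 (Lpl, combination against nab-paclitaxel), 1.59 (Pparg, combination against phenelzine, edgeR adjusted p = 0.0169) and 0.23 (Slc2a4, slope). With the mouse share as a covariate Pparg was 0.037 for the combination against phenelzine. Without the 4 libraries that stood apart in the human genes they were -0.053 (Slc2a4, interaction), -0.0038 (Lpl, average phenelzine effect) and 0.12 (Slc2a4, slope). With 1 library left out Lpl ran from -1.01 to 0.62 (phenelzine against vehicle), -0.23 to 0.21 (combination against nab-paclitaxel) and -0.53 to 0.29 (average phenelzine effect). Lep ran from -1.27 to 2.74 (phenelzine against vehicle) and -2.16 to 1.84 (interaction). Pparg ran from -0.011 to 0.58 (nab-paclitaxel against vehicle), -0.50 to 0.21 (combination against phenelzine) and -0.16 to 0.29 (average nab-paclitaxel effect), and Slc2a4 from -0.10 to 1.95 (interaction).

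With the replicate block 0 adipocyte genes passed (0 to 361 of all genes by comparison). Lpl was then -0.12 (phenelzine against vehicle), 0.026 (combination against nab-paclitaxel) and -0.046 (average phenelzine effect). Of 24 same-number pairs, 11 correlated over 0.1 (range -0.172 to 0.306), and 6 of 16 libraries correlated best with their own number. The median correlation was 0.0972 for same-number pairs and -0.009 for other pairs across groups. These values do not decide whether the numbers pair the mice.

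Calls among all mouse genes differed between settings: for the average nab-paclitaxel effect 120 passed in edgeR, 1230 in DESeq2 and 898 in voom, and for the combination against vehicle 5, 287 and 3. DESeq2 was given all IDs and voom used sample weights, so tool, filter and weights cannot be told apart here. With 1 library left out edgeR called 14 to 830 and 0 to 58, the highest counts both without combination 4. The separation of combination and vehicle, whose alternatives were added after the data were seen, held for 6 genes (2.67% of all tested genes). It held for 10 without vehicle 3 (5.11%) and for 4 scaled to all counts (3.34%). Without the 4 libraries that stood apart it held for 6, with no share over all genes computed. That setting drops combination 1 and 3, and groups of fewer libraries separate more easily. Lep is limited by depth, with 5 or fewer counts in 5 libraries.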
